A study of Mus musculus with 21 samples.

Results

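The response to vitamin C (Vc) was followed in mouse embryonic fibroblasts on the way to induced pluripotent stem cells that carried no Tet1CD construct. It was read from 4 matched pairs of RNA sequencing libraries, that is 8 of the 21 libraries of the study, and each pair compared cells with vitamin C (Vc+) with cells without it (Vc-) under the same construct. The fibroblasts came from ICR mouse embryos, were used at passage 2 and were infected with retroviral c-Myc, Oct4 (encoded by Pou5f1), Klf4 and Sox2, the SKOM set of the labels. They were kept in mouse embryonic stem cell medium with leukaemia inhibitory factor and serum, with or without vitamin C, and harvested on day 5. The 4 pairs carried Flag+shLuc, Dnmt1, shDnmt1 or shp53+shDnmt1. A later comparison adds 3 pairs (6 libraries) of the same day, with Tet1CD, Tet1CD+Dnmt1 or Tet1CD+shDnmt1. Flag+shLuc, an empty tag vector with a luciferase hairpin, is taken here as the control, shDnmt1 is a hairpin against the maintenance DNA methyltransferase Dnmt1, and shp53 is a hairpin against Trp53. Every construct was sequenced once in each medium, the cultures were mixed populations of infected cells, and a lower value in such bulk RNA cannot tell fewer cells of a type from less RNA per cell.

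Vitamin C (ascorbate) keeps iron in its reduced form and so serves enzymes that use iron and 2-oxoglutarate. These include the TET enzymes that oxidise 5-methylcytosine, many histone lysine demethylases, the prolyl and lysyl hydroxylases that mature collagen, and the prolyl hydroxylases that mark the hypoxia-inducible factors (HIF) for destruction. It is widely used to raise the yield of reprogramming, in which fibroblasts first shut down mesenchymal genes and switch on epithelial ones before pluripotency genes come on.

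The values came as integers on a scale set separately for each medium's table, in which the median gene read 226 with vitamin C and 180 without it in each library, so sequencing depth is unknown. The 10 most abundant genes of a library shared one highest value, 28926 in Vc+ and 19681 in Vc-. For 10710 genes the ratio log2((Vc+ value + 5)/(Vc- value + 5)) was taken in each pair and centred on that pair's median, which lay at 0.57 in all 4 pairs, a 1.48-fold to 1.49-fold shift. Differences are therefore relative to the median gene of the pair. The added 5 shrinks the ratios of genes with low values on this log2(value + 5) scale. A gene is called higher or lower when all 4 centred ratios had the same sign and their median was at least 1 in size, a 2-fold difference. Medium and table cannot be told apart, so no p-value is given for Vc+ against Vc-, and the spread is the SD over the 4 pairs. Per-library values below run in the order control, labelled Dnmt1, shDnmt1, shp53+shDnmt1.

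The targeted genes were read first. Dnmt1 (ENSMUSG00000004099, mm10 chromosome 9, 20907206 to 20959888, minus strand) had 2346, 2381, 1154 and 1319 in Vc+ cells, against 984, 1001, 527 and 726 in Vc- cells. It was lower in both hairpin libraries of each medium, while the libraries labelled Dnmt1 lay next to their controls and are named by their label for that reason. Trp53 (chromosome 11, 69580359 to 69591873) had 621 with shp53+shDnmt1 in Vc+ cells and 453 in Vc- cells, below the 1194 to 1365 and 810 to 873 of the other libraries of each medium. Its median vitamin C ratio was 0.00 (SD 0.13). Among the 4 reprogramming factors, whose values add viral to resident transcripts, the medians were 0.07 for Sox2, 0.01 for Pou5f1 and 0.25 for Klf4. Myc stood at the ceiling of 19681 in all 4 Vc- libraries and at 13535 to 18104 in Vc+ cells, so its ratio (median -0.90) is limited by that ceiling.

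Relative to the median gene, vitamin C went with higher values of most measured epithelial, mitotic and interferon-stimulated genes. Contractile, adhesion and matrix genes of fibroblasts were mostly lower. Of 10710 genes, 64 were called higher (0.598%) and 78 lower (0.728%). At 1.5-fold the counts were 317 higher (2.96%) and 486 lower (4.54%). Without a size limit, 2826 genes were higher in all 4 pairs (26.4%) and 2898 lower (27.1%). Just inside the 2-fold limit lay Mansc1 (median 1.00) and Olfml2b (-1.01), and just outside it Smpd3 (-0.99).

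The largest difference among called genes with a mean value of at least 50 belonged to Arhgap36 (ENSMUSG00000036198, chromosome X, 49470450 to 49500244, plus strand), a gene known to promote Hedgehog signalling. It had 444, 670, 705 and 930 in Vc+ cells, against 24, 41, 73 and 129 in Vc- cells, a median log2 ratio of 2.96 (SD 0.55). Every Vc+ library stood above every Vc- library after centring, and within each medium the values climbed in the same order of constructs. Oas2 came next (2.40) and is described with the interferon-stimulated genes. Cml3, of the camello-like acetyltransferase family, had 428, 529, 578 and 669 in Vc+ cells against 43, 69, 94 and 139 in Vc- cells (2.14, SD 0.40). Dmrtc2, a DM-domain transcription factor known from male germ cells, had 107, 177, 237 and 375 in Vc+ cells against 13, 21, 43 and 76 in Vc- cells (1.92, SD 0.27). The centred levels of Dmrtc2 overlapped between media, because its values differed as widely between constructs as between media, although all 4 pairs agreed. Prob1, the leukocyte surface mucin gene Spn, the liver-secreted Fetub and the X-linked Bex4 were also among the 12 leading genes, with medians of 1.80, 1.68, 1.62 and 1.48.

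On the lower side, 10 of the 12 leading genes were Lox, Cdo1, Flrt2, Serpina3i, Sema3c, Rdh10, Hey2, Serpina3g, Anxa10 and Flt1, beside the mesenchymal genes Acta2 and Cdh11 described next. Cdo1, cysteine dioxygenase (ENSMUSG00000033022, chromosome 18, 46713205 to 46728342), had 186, 161, 228 and 151 in Vc+ cells, against 377, 410, 458 and 268 in Vc- cells (-1.56, SD 0.22). Flrt2, a leucine-rich repeat adhesion receptor, stood at -1.54 (SD 0.20), the guidance factor Sema3c at -1.40 (SD 0.11) and Rdh10, the retinol dehydrogenase that makes the precursor of retinoic acid, at -1.35 (SD 0.11). For these 4 genes the 2 media did not overlap after centring. Serpina3i and Serpina3g are neighbouring, similar members of one protease-inhibitor cluster, and reads could have been split between them, so their ratios of -1.53 and -1.33 are uncertain.

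**Figure D1:**
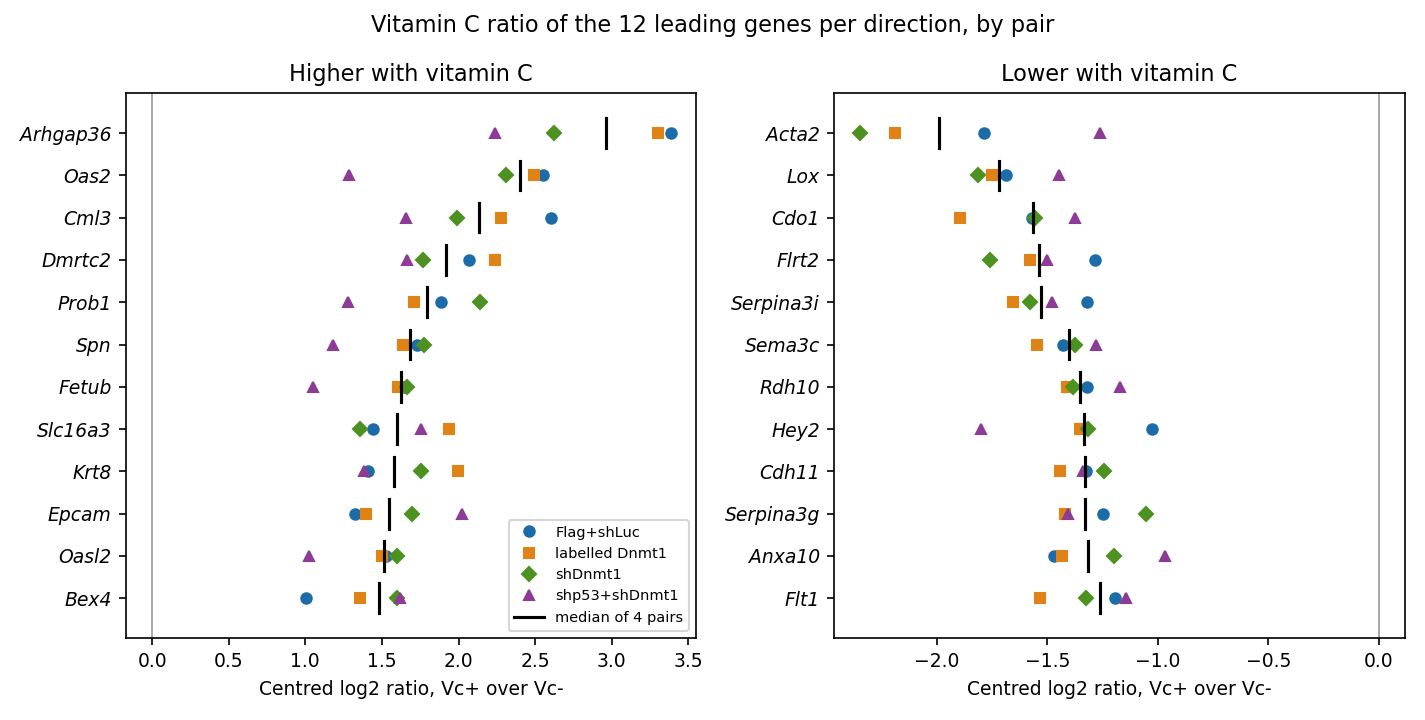
Centred log2 ratios (Vc+ over Vc-, x axis) of the 12 leading genes in each direction, relative to the median gene of each pair. Each symbol is 1 construct-matched pair and the black bar is the median of the 4. Arhgap36 (2.96) and Oas2 (2.40) lead the higher genes, Acta2 (-1.99) and Lox (-1.72) the lower ones.

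Epithelial genes were mostly higher. Of 14 measured members of a 32-gene list, 10 were higher in all 4 pairs and 4 lower in all 4, beside 26.4% and 27.1% of all genes. Among them 2 were called higher, and the list median was 0.48. Their uncentred sums were 10573 to 13200 in Vc+ and 6864 to 9237 in Vc- libraries. That 1.47-fold ratio did not exceed the 1.48-fold to 1.49-fold shift between the tables, so the list was higher by member and not by sum. Epcam, the epithelial cell adhesion molecule (ENSMUSG00000045394, chromosome 17, 87635979 to 87651106, plus strand), had 140, 187, 235 and 332 in Vc+ cells, against 34, 44, 45 and 51 in Vc- cells (1.55, SD 0.32). Keratin gene Krt8 (ENSMUSG00000049382, chromosome 15, 101996711 to 102004342, minus strand) had 247, 363, 439 and 551 in Vc+ cells, against 59, 57, 84 and 139 in Vc- cells (1.58, SD 0.30). Neither gene overlapped between media, and both had their highest value with shp53+shDnmt1 in either medium. Ladinin (Lad1, 0.93), claudin 3 (Cldn3, 0.81), the membrane protease St14 (0.79) and the planar polarity cadherin Celsr1 (0.74) were higher in every pair. E-cadherin (Cdh1) had 193 to 296 in Vc+ cells against 98 to 150 in Vc- cells, a median of 0.37 (SD 0.19) with overlap. Members that were lower in all 4 pairs included Krt19 (-0.84), plakoglobin (Jup, -0.36) and Cd24a (-0.21).

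Mesenchymal genes went the other way, relative to the median gene. Of 25 measured, 19 were lower in all 4 pairs and 3 higher, 4 were called lower, and the list median was -0.39, which lies above 0 without centring. Smooth muscle actin (Acta2, ENSMUSG00000035783, chromosome 19, 34241090 to 34255336, minus strand), the contractile actin of activated fibroblasts, had 8456, 6406, 5728 and 3129 in Vc+ cells, against 19681, 19681, 19681 and 5063 in Vc- cells (-1.99, SD 0.48). The first 3 Vc- libraries stood at the ceiling, so those ratios may be too small. The mesenchymal cadherin gene Cdh11 (ENSMUSG00000031673, chromosome 8, 102632995 to 102785111, minus strand) had 1140, 830, 930 and 661 in Vc+ cells, against 1927, 1525, 1491 and 1131 in Vc- cells (-1.33, SD 0.08). N-cadherin (Cdh2, -1.04) and connective tissue growth factor (Ctgf, -1.05) completed the called members, and calponin (Cnn1, -0.99), transgelin (Tagln, -0.85) and the transcription factor Snai2 (-0.79) lay close behind. Twist1 (-0.29), Zeb1 (-0.15) and Zeb2 (-0.39), other mesenchymal transcription factors, were lower by less, although in every pair. Musculin (Msc, 0.80), Meox2 (0.68) and Snai1 (0.15) were higher in all 4 pairs.

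**Figure D2:**
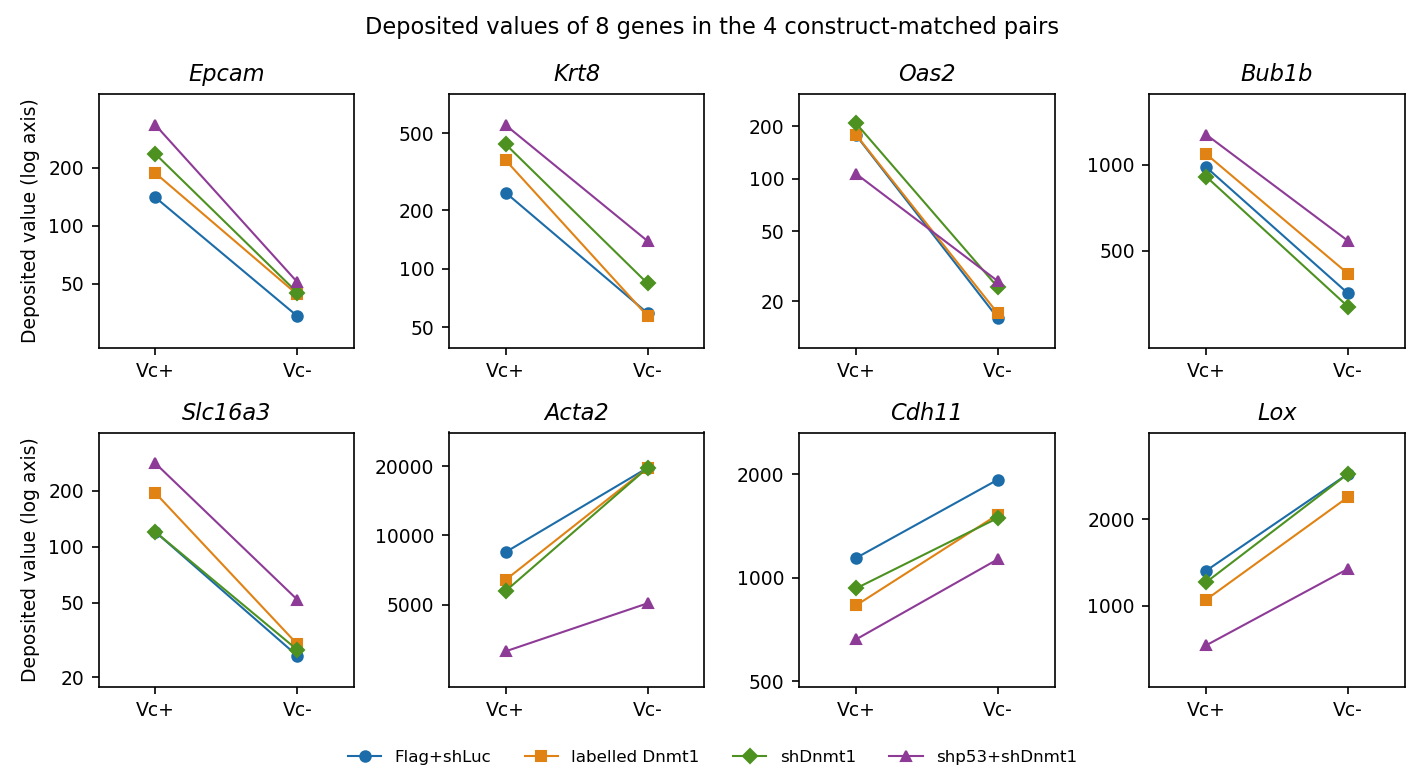
Deposited values (log axis, scales differ) of 8 genes in Vc+ (left) and Vc- (right) libraries, with a line joining each construct-matched pair. The tables were normalized separately and a median gene was 1.48-fold to 1.49-fold higher in the Vc+ table. Epcam, Krt8, Oas2, Bub1b and Slc16a3 exceed that shift in every pair, whereas Acta2, Cdh11 and Lox are lower in Vc+ cells in every pair.

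Pluripotency genes were little represented at day 5. Of 35 listed, 10 had a ratio, 6 of them higher and 2 lower in all 4 pairs. L1td1, an RNA-binding protein gene of embryonic stem cells (ENSMUSG00000087166, chromosome 4, 98726734 to 98733644, plus strand), was the called member, with 1520, 1622, 1678 and 2253 in Vc+ cells against 429, 468, 564 and 759 in Vc- cells (1.10, SD 0.13). Another 7 were listed in the Vc+ table but not in the Vc- table, where each listed gene reaches 32 in 2 or more libraries. Threonine dehydrogenase (Tdh) was at 70, 92, 109 and 116 and Tfcp2l1 at 67, 88, 76 and 85 in the Vc+ libraries. Nr0b1 (36 to 88), the de novo methyltransferase gene Dnmt3b (48 to 55) and Gdf3 (19 to 80) were lower, and Dppa2 was listed at 0 in 3 of the 4. These 7 have no ratio, since a gene missing from the Vc- table has no value there.

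DNA methylation enzymes were higher as a group. All 7 measured methyltransferases and partners were higher in all 4 pairs, with a list median of 0.40 and none called. Dnmt1 led with 0.62 (SD 0.18), from values given above, and its ratio was lowest, 0.29, in the shp53+shDnmt1 pair. Uhrf1, which guides Dnmt1 to newly copied DNA, stood at 0.59 (SD 0.08), and the de novo enzyme gene Dnmt3a at 0.06. Among 15 TET and base repair genes, 11 were higher and 1, Gadd45a (-0.49), lower in all 4 pairs. Tet1 (ENSMUSG00000047146, chromosome 10, 62804577 to 62899118, minus strand) was called higher, at 54, 65, 41 and 88 in Vc+ cells against 16, 13, 11 and 19 in Vc- cells (1.17, SD 0.26). These are low values, and the pseudocount of 5 reduces the ratio. Tet2 had 545, 673, 640 and 703 in Vc+ cells against 207, 212, 304 and 294 in Vc- cells (0.74, SD 0.24), and the glycosylase gene Mbd4 stood at 0.86 (SD 0.17). Tet3 differed less (0.15).

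Chromatin genes on the repressive side were also higher. Of 12 genes of histone H3 lysine 9 methylation and of the CAF-1 chromatin assembly complex, which are known barriers to reprogramming, 10 were higher in all 4 pairs and none lower (median 0.39). The heterochromatin protein gene Cbx3 had 832, 998, 1046 and 1301 in Vc+ cells against 398, 439, 380 and 423 in Vc- cells (0.74, SD 0.25), and the methyltransferase gene Suv39h1 stood at 0.52 (SD 0.12). Of 20 histone lysine demethylases, the enzymes that use vitamin C, 5 were higher and 1 lower in all 4 pairs, beside 26.4% and 27.1% of all genes. These demethylases were near the median gene, with a median of 0.03. Kdm1b (0.43) and Kdm1a (0.25), the largest of these, encode the demethylases that use flavin and not iron.

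Every measured G2/M and mitosis gene was higher in all 4 pairs, 32 of 32, where 26.4% of all genes were. No member reached 2-fold, 6 reached 1.5-fold, and the list median was 0.47, with pair medians between 0.42 and 0.61. In 24 of the 32 the levels of the 2 media did not overlap after centring, against 13.3% of all genes in that direction. Spindle checkpoint kinase gene Bub1b (ENSMUSG00000040084, chromosome 2, 118598211 to 118641591, plus strand) had 982, 1092, 910 and 1278 in Vc+ cells, against 354, 415, 318 and 541 in Vc- cells (0.85, SD 0.12). Mitotic cyclin gene Ccnb2 (ENSMUSG00000032218, chromosome 9, 70407689 to 70421554, minus strand) had 370, 379, 383 and 459 in Vc+ cells, against 142, 130, 144 and 220 in Vc- cells (0.80, SD 0.20). In both genes the shp53+shDnmt1 library was the highest of its medium and that pair had the smallest ratio. The proliferation marker Mki67 stood at 0.58 and Cdk1 at 0.43. Of 37 G1/S and replication genes, 29 were higher in all 4 pairs and none lower (median 0.28), led by cyclin A2 (Ccna2, 0.65) and the dUTPase gene Dut (0.61).

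Promoters of mitotic genes often hold a cell-cycle genes homology region (CHR), a known docking site of the DREAM and MuvB complexes that repress these genes in resting cells. RefSeq windows (GRCm38.p6, 250 bases before to 50 after the start site) were matched for 8431 of the 10710 genes. A CHR, searched as TTTGAA or TTCGAA on both strands, lay in 22 of 28 G2/M windows (78.6%) and in 13.6% of all windows. A CCAAT box, searched as CCAAT on both strands, which can share 1 base with the CHR, lay in 23 of these 28 (82.1%) and in 39.1% of all. These motifs were chosen after the values were seen, and a match describes letters, not binding. Every measured member was higher, so the shares describe the list and cannot be tied to the response to vitamin C. The 2 leading members are shown because all measured genes of their group moved one way in all pairs; capitals mark the CHR letters. Bub1b is at chr2:118597961-118598260, plus strand, and Ccnb2 at chr9:70421505-70421804, minus strand, each spanning the upstream region and the first transcribed bases.
Bub1b: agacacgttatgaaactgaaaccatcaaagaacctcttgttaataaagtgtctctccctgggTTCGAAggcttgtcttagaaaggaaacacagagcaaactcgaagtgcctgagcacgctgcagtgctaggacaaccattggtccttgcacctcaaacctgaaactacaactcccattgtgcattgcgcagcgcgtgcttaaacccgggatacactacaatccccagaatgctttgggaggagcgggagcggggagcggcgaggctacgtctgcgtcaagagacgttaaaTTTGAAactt
Ccnb2: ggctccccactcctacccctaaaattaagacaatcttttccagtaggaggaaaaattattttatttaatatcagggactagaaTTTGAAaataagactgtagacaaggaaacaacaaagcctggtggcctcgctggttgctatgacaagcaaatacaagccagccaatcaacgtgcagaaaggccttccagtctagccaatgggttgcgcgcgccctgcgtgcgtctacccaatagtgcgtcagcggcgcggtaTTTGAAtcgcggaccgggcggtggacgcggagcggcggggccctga
In Bub1b the 2 matches begin 188 bases before and 40 bases after the start site, and in Ccnb2 167 bases before and 4 bases after it.

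Interferon-stimulated genes, which cells switch on when they sense viral or other foreign nucleic acid, had the highest list median, 0.86. Of 26 measured, 22 were higher in all 4 pairs, 1, Ifit2 (-0.13), was lower, and 9 were called higher. Oas2, a sensor that makes the oligoadenylate activating RNase L (ENSMUSG00000032690, chromosome 5, 120730333 to 120749853, minus strand), had 178, 179, 208 and 107 in Vc+ cells against 16, 17, 24 and 26 in Vc- cells (2.40, SD 0.59). Its family member Oasl2 had 243, 209, 246 and 173 in Vc+ cells against 53, 46, 51 and 54 in Vc- cells (1.51, SD 0.26). In both the shp53+shDnmt1 library was the lowest of the Vc+ libraries and the highest of the Vc- libraries, so that pair had the smallest ratio. Oas family genes are similar in sequence, and reads could be shared among them. Xaf1 (1.31) and the receptor chaperone gene Rtp4 (1.21), with Dtx3l, Ddx60, Parp14, Irf7 and Parp9 between 1.05 and 1.16, made up the other called members. The transcription factor genes of the pathway differed as well: Irf7 had 96, 78, 106 and 64 in Vc+ cells against 22, 27, 25 and 26 in Vc- cells (1.06). Stat2 had 283, 253, 255 and 231 in Vc+ cells against 85, 83, 88 and 81 in Vc- cells (0.95, SD 0.10), and Irf9 stood at 0.84. Another 13 members were listed only in the Vc+ table, Isg15 at 42, 42, 56 and 40 and Ifit1 at 33, 31, 33 and 35, with Ifit3 at no more than 9. Ifit3, Oas3, Oasl1, Mx1, Rsad2 and Trim30a stayed under 32 in all 4 Vc+ libraries without Tet1CD, so their listing rests on libraries with Tet1CD. Oas3 had 17 to 26 without Tet1CD and 258 to 272 with it. These 13 have no ratio and do not count as higher with vitamin C.

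The core of the interferon-stimulated response element, searched on both strands as a pair of GAAA with any 2 bases between them, lay in 8 of the 19 interferon windows that were matched (42.1%) and in 2.82% of all 8431 windows. Of the 9 members called higher, 5 had a window, and 1 of these 5, Ddx60, held the element (20%). This search was also chosen after the values were seen. The 2 members with the largest medians among those holding it are printed with the element in capitals, to show its place and strand. They are Ddx60, a helicase that aids RNA sensing, at chr8:61927837-61928136, and Stat2, at chr10:128270248-128270547, both on the plus strand and reaching into the first transcribed bases. Ddx60 had 80, 92, 76 and 53 in Vc+ cells against 6, 27, 18 and 25 in Vc- cells (1.14, SD 0.83).
Ddx60: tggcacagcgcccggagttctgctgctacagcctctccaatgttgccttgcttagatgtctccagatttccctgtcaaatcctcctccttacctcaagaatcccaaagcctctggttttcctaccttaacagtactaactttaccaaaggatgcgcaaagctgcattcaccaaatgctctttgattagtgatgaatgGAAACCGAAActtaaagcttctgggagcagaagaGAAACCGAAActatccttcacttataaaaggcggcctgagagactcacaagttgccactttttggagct
Stat2: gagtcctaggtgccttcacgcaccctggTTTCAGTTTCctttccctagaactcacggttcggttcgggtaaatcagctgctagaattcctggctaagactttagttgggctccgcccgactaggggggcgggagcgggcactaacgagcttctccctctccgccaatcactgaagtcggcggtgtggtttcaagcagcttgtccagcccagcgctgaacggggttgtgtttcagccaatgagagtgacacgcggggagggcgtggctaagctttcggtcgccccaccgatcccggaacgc
Ddx60 holds 2 matches, 53 and 19 bases before its start site. Stat2 holds 1, on the opposite strand and 222 bases before the RefSeq start, which lies 78 bases from the start in the deposited table.

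Collagens and core matrix genes were lower relative to the median gene. Of 35 measured, 22 were lower in all 4 pairs and 2 higher, 5 were called lower and none higher, and the median was -0.35, above 0 without centring. The elastic fibre gene Fbln5 (ENSMUSG00000021186, chromosome 12, 101746565 to 101819055, minus strand) had 1997, 1590, 1622 and 1227 in Vc+ cells against 2701, 2632, 2632 and 1528 in Vc- cells (-1.13, SD 0.20). Fibrillar collagen gene Col5a2 (ENSMUSG00000026042, chromosome 1, 45374321 to 45503282, minus strand) had 3137, 2355, 2114 and 1775 in Vc+ cells against 3706, 3331, 3706 and 2641 in Vc- cells (-1.11, SD 0.23). Col12a1, tenascin C (Tnc) and Col8a1 were the other called members, each between -1.06 and -1.05, with overlapping levels for Col12a1. The main fibrillar collagens differed by less: Col1a1 stood at -0.64, Col3a1 at -0.71 and Col1a2 at -0.38. Basement membrane collagens Col4a1 (0.00) and Col4a2 (0.06) did not keep one sign over the pairs, and Col15a1 (0.49) and Col5a3 (0.42) were higher in all 4.

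Of 23 genes that modify collagen, among them the hydroxylases for which vitamin C is the classic cofactor, 12 were lower in all 4 pairs and 2 higher, with a median of -0.13 (above 0 without centring). Lox (ENSMUSG00000024529, chromosome 18, 52517238 to 52529708, minus strand), the copper enzyme that crosslinks collagen and elastin, was the called member, with 1325, 1051, 1208 and 729 in Vc+ cells against 2879, 2390, 2879 and 1345 in Vc- cells (-1.72, SD 0.16). Its relatives Loxl1 and Loxl2 stood at -0.75 each. Prolyl 4-hydroxylase subunit genes P4ha3 (-0.62), P4ha2 (-0.44) and P4hb (-0.13) were lower in every pair, whereas the lysyl hydroxylase genes Plod1 (-0.10), Plod2 (-0.05) and Plod3 (-0.07) lay near the median gene.

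Of 30 HIF target genes measured, 10 were higher and 10 lower in all 4 pairs, shares near those of all genes (26.4% and 27.1%), with a median of 0.01. The higher ones included the lactate exporter Slc16a3 (ENSMUSG00000025161, chromosome 11, 120948480 to 120958775, plus strand), with 120, 194, 120 and 280 in Vc+ cells against 26, 30, 28 and 52 in Vc- cells (1.60, SD 0.27). Egln3, itself a HIF prolyl hydroxylase and a HIF target (ENSMUSG00000035105, chromosome 12, 54178981 to 54203860, minus strand), had 454, 533, 481 and 531 in Vc+ cells against 122, 142, 169 and 188 in Vc- cells (1.10, SD 0.22). The glucose transporter gene Slc2a1, which also carries oxidised vitamin C, had 337, 490, 408 and 604 in Vc+ cells against 147, 159, 148 and 212 in Vc- cells (0.89, SD 0.18). Bnip3 (0.87), a mitophagy receptor gene, and the pyruvate dehydrogenase kinase gene Pdk1 (0.62) were also higher. Lower members included Lox, Rora (-0.91), Hmox1 (-0.90), Bhlhe40 (-0.81) and Loxl2. Epas1 (ENSMUSG00000024140, chromosome 17, 86753907 to 86833410, plus strand), which encodes HIF-2 alpha, was called lower, with 359, 272, 293 and 253 in Vc+ cells against 470, 435, 407 and 381 in Vc- cells (-1.09, SD 0.13). Hif1a itself had a median of -0.15 with pairs of both signs. The HIF core, ACGTG or GCGTG on both strands, lay in 19 of 22 HIF target windows (86.4%) and in 65.1% of all, so these short letters are common to most promoters.

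Genes of glycolysis differed little: 6 of 15 were higher and 2 lower in all 4 pairs (median 0.16), with Eno2 at 0.40 and Pfkl at 0.26. Of 22 genes of cholesterol synthesis and uptake, 13 were higher and 2 lower in all 4 pairs (median 0.24), led by Idi1 and Dhcr7 at 0.60 each. Of 23 Nrf2 antioxidant genes, 5 were higher and 8 lower in all 4 pairs (median -0.02), beside 26.4% and 27.1% of all genes. Glutathione reductase (Gsr, 0.52) and haem oxygenase (Hmox1, -0.90) lay at the ends. Respiratory chain (median 0.10), iron handling (0.01) and unfolded protein response genes (-0.08) had medians near that of all genes (0.00). Of 6 measured genes of vitamin C uptake and recycling, Slc2a1 was the one with the same sign in all 4 pairs, and the ascorbate transporter gene Slc23a2 stood at 0.11.

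Growth arrest and stress genes were lower relative to the median gene. Of 31 p53 target genes, 21 were lower in all 4 pairs and none higher, with none called and a median of -0.19, above 0 without centring. Pmaip1, a BH3-only death gene, and Dcxr stood at -0.66 each, the p53 antagonist Mdm2 at -0.58 and the CDK inhibitor gene Cdkn1a at -0.25. In the shp53+shDnmt1 pair, where Trp53 was lowest, the list median was -0.26, against -0.20 in the control pair. Of 16 immediate early genes, which respond within minutes to serum and stress, 13 were lower in all 4 pairs and none higher (median -0.44, above 0 without centring), among them Maff (-0.82) and the phosphatase gene Dusp1 (-0.64), while Fos stood at 0.03. Senescence-associated secreted factors were lower in 12 of 20 cases and higher in 1 (median -0.37, above 0 without centring). The chemokine gene Ccl2 stood at -0.91. CDK inhibitors split, with Cdkn1b (0.71, SD 0.05) and Cdkn1c (0.68) higher and Cdkn2b (-0.69, SD 0.30) lower in all 4 pairs.

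Of 23 imprinted genes, 8 were higher and 10 lower in all 4 pairs, beside 26.4% and 27.1% of all genes. The maternally expressed noncoding RNAs of the Dlk1-Dio3 region, a locus whose imprint is known to be easily lost in reprogramming, were higher together: Meg3 had 1547, 1261, 1261 and 1037 in Vc+ cells against 719, 596, 640 and 516 in Vc- cells (0.47, SD 0.06), and Rian and Mirg stood at 0.75 each. Dlk1, the paternally expressed gene of that locus, stood at -0.47 with values of 41 to 47 in Vc+ cells and 30 to 45 in Vc- cells. Igf2 (-0.89) and Ndn (-0.92), paternally expressed genes of other loci, were lower in every pair.

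**Figure D3:**
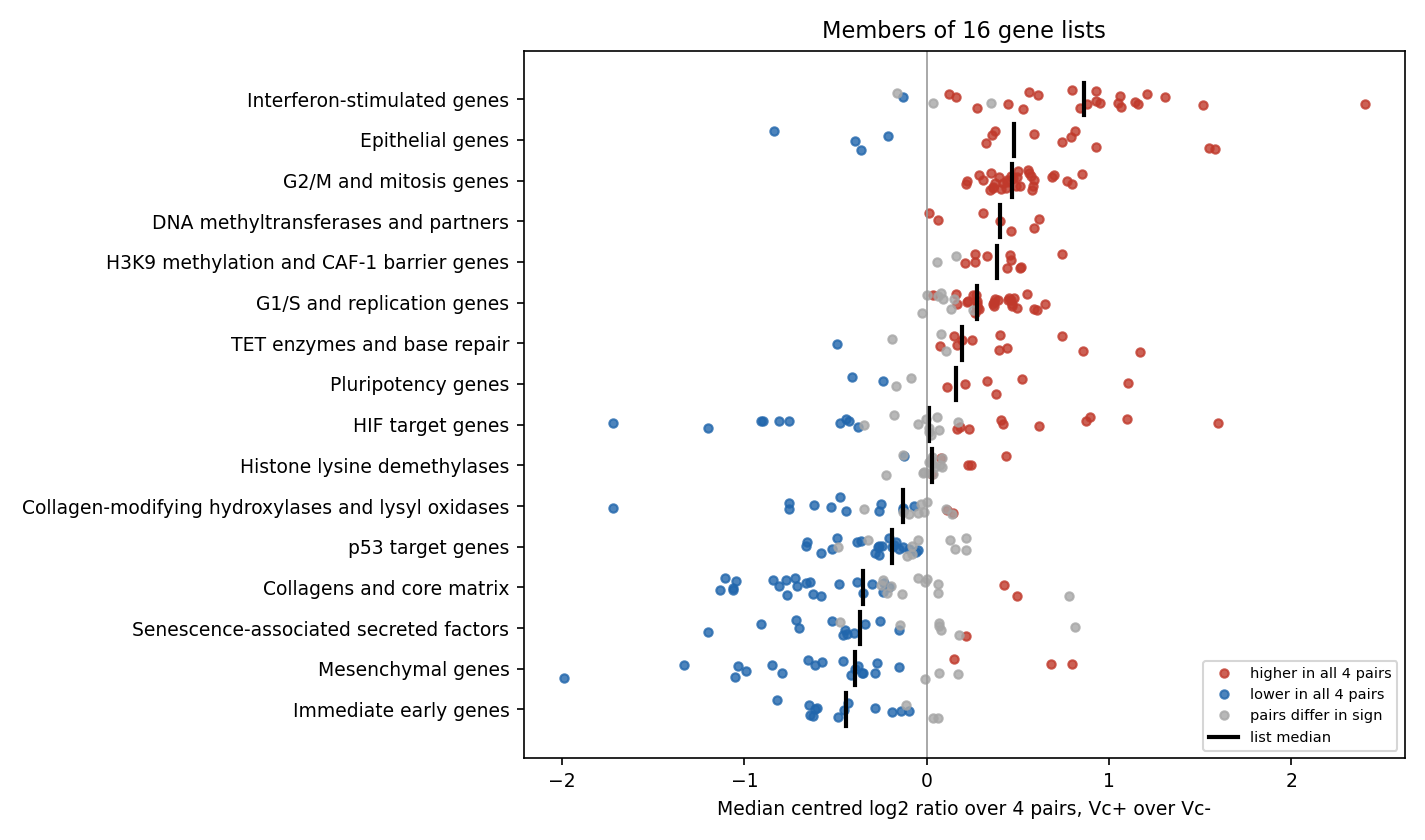
Median centred log2 ratio over the 4 pairs (x axis) of the measured members of 16 gene lists, relative to the median gene. Red and blue points kept one sign in all 4 pairs, grey points did not, and black bars are list medians. All 32 G2/M genes lie above 0, and list medians run from 0.86 for interferon-stimulated to -0.44 for immediate early genes; without centring every point would lie 0.57 further right and the lower list medians would be above 0.

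Markers of other cell types were few, and all 7 of their lists had medians below 0 relative to the median gene. The medians were -0.46 for macrophage, -0.63 for skeletal muscle, -0.41 for neural, -0.32 for adipocyte, -0.33 for cartilage and bone, -0.85 for blood cell and -0.03 for endothelial markers, and each list but the endothelial one was below 0 in every pair. Without centring the lists other than skeletal muscle and blood cell would have medians above 0. The summed values that follow are uncentred and so hold the 1.48-fold to 1.49-fold shift between the tables. Of 17 macrophage markers 4 were measured, with summed values of 330 to 472 in Vc+ libraries and 302 to 400 in Vc- libraries, and Ptprc was listed at 0 in the Vc+ control and in the Vc- shp53+shDnmt1 library. Laptm5 of this list was lower in all 4 pairs (-0.63). Of 8 measured neural markers 6 were lower in all 4 pairs, with sums of 8014 to 8962 in Vc+ and 6513 to 7075 in Vc- libraries. All 3 measured skeletal muscle markers were lower, led by Tnnt2 (-1.01), on sums of 49 to 120 in Vc+ and 75 to 115 in Vc- libraries. The 4 endothelial markers had sums of 892 to 1049 in Vc+ and 582 to 657 in Vc- libraries, with 2 higher and 2 lower. The 4 adipocyte markers had sums of 3156 to 3247 in Vc+ and 2283 to 2741 in Vc- libraries, with 2 lower, and the 4 cartilage and bone markers sums of 1072 to 1495 in Vc+ and 1015 to 1192 in Vc- libraries, with 1 higher and 2 lower. The blood cell marker Cd34 was lower (-0.85). Whether such cells had a part in the interferon, matrix or mitotic differences was not tested.

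The 4 pairs resembled each other to different degrees. Across the 10710 genes, which share libraries' depth and composition, Pearson's correlation of centred ratios was lowest, 0.50, between the control and shp53+shDnmt1 pairs. It was highest, 0.75, between the control pair and the pair labelled Dnmt1. All 4 pairs span the same 2 tables, so a gene's offset between tables is common to them and would raise every correlation. Single pairs held 88 to 120 genes at least 2-fold higher and 111 to 180 at least 2-fold lower, the 180 in the shp53+shDnmt1 pair. Called higher genes had the ratio smallest in size in the shp53+shDnmt1 pair in 30 of 64 cases, against 27.0% of all genes. For called lower genes that pair was the smallest in 27 of 78.

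Genes that differed with vitamin C also differed between constructs in the same sense, which the calls did not use. Of the 64 called higher, 41 had their highest Vc+ value with shp53+shDnmt1 and 45 their highest Vc- value, where 33.8% and 34.0% of all genes did. Of the 78 called lower, 61 had their lowest Vc+ value and 67 their lowest Vc- value with shp53+shDnmt1, where 32.4% and 33.1% of all genes did. Epcam, Krt8, Arhgap36 and Cml3 are examples on the higher side, and Cdh11, Lox and Cdo1 on the lower side. No test was made of this, since each construct had 1 library per medium.

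Whether the vitamin C ratio changed with the Dnmt1 hairpin was tested over the 4 pairs, with shDnmt1 and shp53+shDnmt1 set against the control and the pair labelled Dnmt1. A difference of ratios between pairs is free of a gene's offset between tables. Separate cultures are not stated in the labels, so each p-value reflects no more than sample-to-sample spread, which may be technical. With 2 residual degrees of freedom, limma with Benjamini-Hochberg adjustment called 0 of 10710 genes in either direction (0%), while 677 were positive and 733 negative at an unadjusted p under 0.05. The smallest p-values belonged to Pmch, a neuropeptide gene with mean ratios of 2.50 with and -3.33 without the hairpin (difference 5.83 ± 0.70, SE, adjusted p = 0.0781), and to the perlecan gene Hspg2. The mean ratios of Hspg2 were -0.58 with and 0.35 without the hairpin, a difference of -0.93 ± 0.11 (SE, adjusted p = 0.0781). Dnmt1 itself had mean ratios of 0.42 with and 0.68 without the hairpin, a difference of -0.25 ± 0.10 (adjusted p = 0.340). Leaving out the shDnmt1 pair, which leaves shp53+shDnmt1 alone on its side, gave 69 positive and 100 negative calls.

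A further test asked which responses differed from those of cells with Tet1CD, a construct with sequence of the methylcytosine oxidase Tet1. It used the 3 pairs with Tet1CD, Tet1CD+Dnmt1 or Tet1CD+shDnmt1 of the same 2 tables. The shp53+shDnmt1 pair has no Tet1CD counterpart, and constructs were not matched in this test. The p53 hairpin and Tet1CD are therefore partly mixed in it, and leaving out that pair gave 742 positive and 1136 negative calls. Without Tet1CD the vitamin C ratio was larger for 957 genes (8.93%) and smaller for 1382 (12.9%) of 10711 (limma, Benjamini-Hochberg adjusted p under 0.05). The 64 and 78 called genes were chosen on the ratios without Tet1CD that enter this contrast, so no count of them is read as support. For the same reason the differences of single called genes, here and below, may be too large and their p-values too small. They are given as description. In the Tet1CD pairs, which the calls did not use, 52 of the 64 had a mean ratio above 0, as 49.8% of all genes did. Of the 78, 53 had a mean below 0, as 50.2% of all genes did. These pairs span the same 2 tables, so a gene's offset between tables would give the same agreement. It cannot be told apart from vitamin C here. Fetub (1.49 without and 1.48 with Tet1CD), Spn (1.58 without, 1.75 with) and Hey2 (-1.37 without, -1.33 with) did not pass the test, with differences of 0.01 ± 0.16, -0.17 ± 0.21 and -0.04 ± 0.22 (SE, adjusted p = 0.979, 0.598 and 0.919).

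Without Tet1CD the ratio was more positive in 6 of 14 epithelial genes and more negative in 2, in 5 and 1 of 10 pluripotency genes, and in 11 and 7 of 30 HIF targets. Of all genes, 8.93% were more positive and 12.9% more negative. The negative counts of the epithelial and pluripotency lists are near that share. Of the genes named next, Epcam, Krt8, L1td1, Slc16a3 and Egln3 were called on their ratios without Tet1CD, which can enlarge their differences. Epcam had a mean ratio of 1.61 without and 0.09 with Tet1CD, a difference of 1.52 ± 0.21 (adjusted p = 0.000739), whereas Krt8 was above 0 in both (1.64 without, 1.09 with). L1td1 stood at 1.11 without and -0.18 with Tet1CD (adjusted p = 0.00108). Among HIF targets, Slc16a3 stood at 1.62 without and -1.34 with Tet1CD, Bnip3 at 1.00 without and -1.11 with it, and Egln3 at 1.10 without and -0.64 with it (each adjusted p at or below 7.43e-05). Among the 7 HIF targets on the other side, Hmox1 stood at -0.86 without and 0.20 with Tet1CD (adjusted p = 0.00284) and Loxl2 at -0.69 without and 0.11 with it (adjusted p = 0.00297). Of the G1/S genes 16 of 37 were more positive without Tet1CD and none more negative, and of the G2/M genes 8 of 32, but neither Bub1b (0.83 without, 0.43 with) nor Ccnb2 (0.75 without, 0.68 with) passed the test (adjusted p = 0.188 and 0.794).

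Matrix and mesenchymal genes were the counterpart. Without Tet1CD the ratio was more negative in 19 of 35 collagen and core matrix genes and in 16 of 25 mesenchymal genes, and more positive in 0 and 2. Of all genes, 12.9% were more negative and 8.93% more positive. The median of mean ratios was -0.40 without and 0.03 with Tet1CD for the matrix list, and -0.39 without and 0.02 with it for the mesenchymal list. Cdh2 stood at -1.04 without and 0.06 with Tet1CD (adjusted p = 0.00123), Col5a2 at -1.10 without and 0.13 with it (adjusted p = 0.00391) and Lox at -1.68 without and -0.48 with it (adjusted p = 0.000232). Cdh2, Col5a2 and Lox were called lower on the ratios without Tet1CD, which can enlarge these differences. Of the p53 targets 20 of 31 and of the senescence-associated factors 13 of 20 were more negative without Tet1CD. Among the pairs of this test, the p53 hairpin was carried only without Tet1CD. Interferon-stimulated genes were higher with vitamin C in both settings, but less so without Tet1CD: the medians of mean ratios were 0.85 without and 1.42 with it, and 19 of 26 members passed the test on that side, Rtp4 among them (1.22 without, 2.90 with, adjusted p = 0.00108). Oas2 (2.16 without, 2.98 with) did not pass (adjusted p = 0.0600). Isg15 and Ifit1, which have no ratio, had 40 to 56 and 31 to 35 in Vc+ cells without Tet1CD, against 260 to 496 and 173 to 294 in Vc+ cells with it. Macrophage markers differed too: the median of mean ratios of the 4 measured was -0.28 without and 1.59 with Tet1CD. On the negative side 3 of the 4 passed the test, as did 3 of 4 endothelial markers (medians 0.03 without and 0.66 with it). Both lists hold only 4 measured genes, too few to read as a group. The part of these markers in the interferon difference was not tested.

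**Figure D4:**
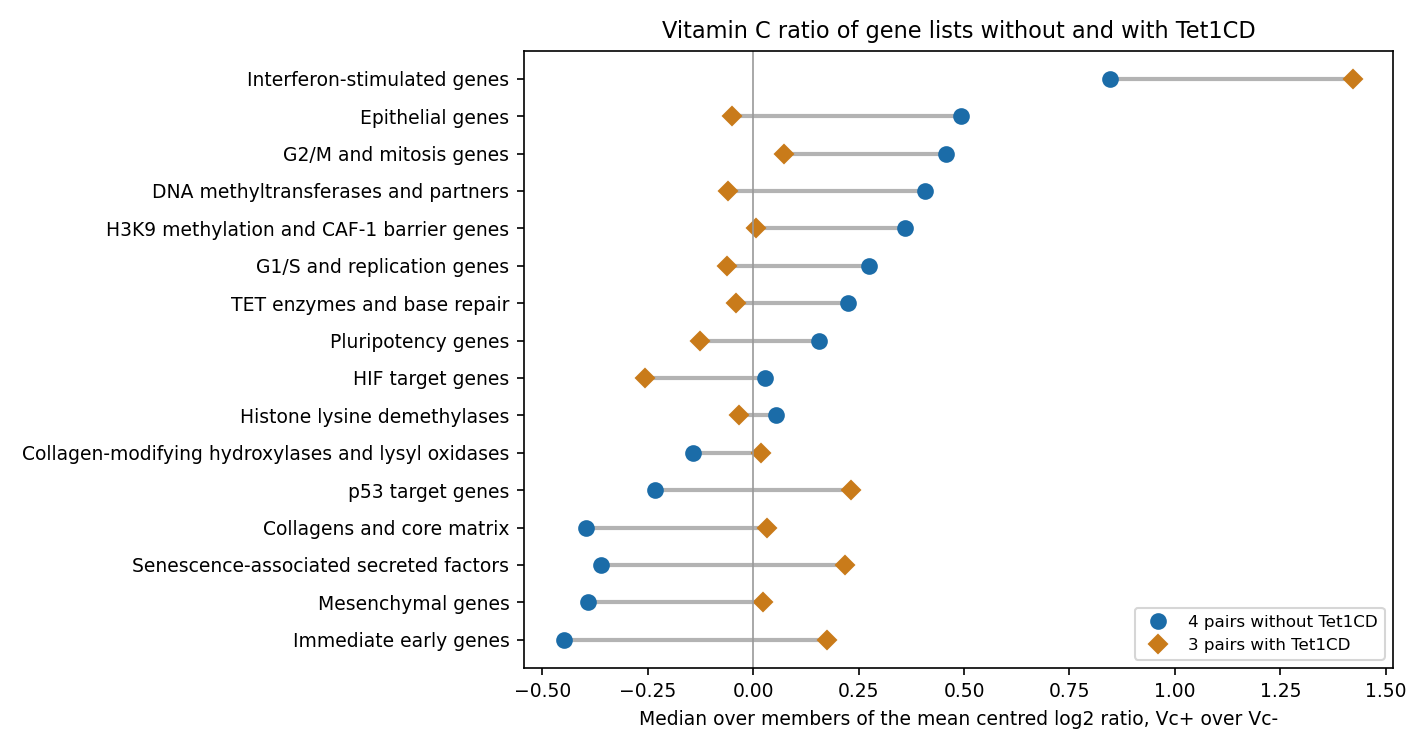
Median over list members of the mean centred log2 ratio, Vc+ over Vc-, in the 4 pairs without Tet1CD (circles) and the 3 pairs with Tet1CD (diamonds), relative to the median gene. The epithelial and mitotic lists lie further right and the matrix and mesenchymal lists further left without Tet1CD, and the interferon list is above 0 in both (0.85 without and 1.42 with).

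Genes listed in a single table have no ratio. The Vc+ table alone listed 1310 genes, of which 475 had at least 32 in all 4 libraries without Tet1CD and 282 were under 32 in all 4, and the Vc- table alone listed 12. Every gene of either table reached 32 in 2 or more of its 7 libraries. The median gene read 1.48-fold to 1.49-fold higher in the Vc+ table, so that level was easier to reach there. The 1310 and 12 are therefore no count of genes switched on or off by vitamin C. The 8 with the highest minimum over the 4 Vc+ libraries were Col17a1, Slc7a3, Myb, Lgals7, Trim65, Pcsk1n, Pianp and Dynlt1c. Col17a1, the hemidesmosome collagen of basal epithelium, had 115, 119, 145 and 117, and the arginine transporter gene Slc7a3, known from pluripotent cells, had 109, 192, 244 and 206. Myb, a proto-oncogene of progenitor cells, had 99, 146, 122 and 219. Both were lower in the 3 Vc+ libraries with Tet1CD, where Slc7a3 had 41 to 46 and Myb 17 to 23. Lgals7, a galectin of stratified epithelia, had 91, 122, 124 and 150, and its levels in the 3 Vc+ libraries with Tet1CD were 133 to 152.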

How the data were processed

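Per the labels, total RNA was extracted with Trizol and sequenced from TruSeq RNA libraries; Bowtie, RSEM and mm10 are named in the submitters' processing notes, with no version or role. The values deposited by the authors have the unit score: whole numbers already normalized within each table by a method not given in the sources used here. They carry no depth, so counting errors and detection limits could not be given. The strand setting is not given in the sources used here, so overlapping and antisense genes cannot be separated. Tables were joined on Ensembl gene identifiers, which gave 10711 shared genes. Genes averaging under 10 across the 8 libraries were dropped (10710 kept), and constructs were taken from sample titles. Named genes are the targets and factors, 12 called genes per direction with a mean of at least 50 (predicted genes left out), up to 4 called members per list (otherwise 2), 8 genes of a single table, the smallest p-values, and 4 genes with 1 pair apart; other members named were picked after their values were seen. The members and the 35 gene lists were chosen with earlier results of these data known. Differences between pairs were tested with limma 3.58.1 (R 4.3.3, intensity trend) on centred ratios, after a test on simulated data; lists were given no test. Alternatives covered the pseudocount, filter, centring, joint quantile normalization, call size, pairing and leaving out each pair. Promoter windows were matched to RefSeq by gene number, then symbol. The fibroblast table was not used. Figures were drawn with matplotlib 3.10.9. Some members of the lists are not reported here.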

Additional observations from a re-analysis of the deposited data

Results flagged for a closer look

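Among 91 named genes and 35 lists, a pair far from the other 3 was looked for by Dixon's ratio, which flags about 1 in 20 by chance. It flagged 7 of the 91 genes and the HIF target list, not far from that rate, so a single flag may be chance. The shp53+shDnmt1 pair stood apart for Fetub (1.05, others 1.61 to 1.66), Ndn (-0.44, others -0.98 to -0.91) and the HIF target list (median 0.21, others -0.05 to -0.01). It also stood apart for Fap (-4.42), Lum (-4.03) and Olfm3 (-4.00), each listed at 0 in the Vc+ shp53+shDnmt1 library and picked for that gap. The pair labelled Dnmt1 stood apart for Tex15 (-0.22) and Dcxr (-0.53).

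The vitamin C effect without Tet1CD minus that with Tet1CD passed the test (limma, Benjamini-Hochberg adjusted) for the following named genes, many of them chosen for their ratio without Tet1CD. The difference was positive for Slc16a3 (2.96), Arhgap36 (2.75), Bex4 (2.21), Bnip3 (2.10), Bex1 (1.63), Epcam (1.52), Nt5dc2 (1.26), Prob1 (1.24), Cml3 (1.18), Klf4 (1.00), Dnmt1 (0.61), Sox2 (0.55), Krt8 (0.55) and Pou5f1 (0.52). It was negative for Oasl2 (-1.36), Serpina3i (-1.29), Acta2 (-1.25), Lox (-1.19), Cdo1 (-1.16), Sema3c (-1.13), Flt1 (-1.06), Cdh11 (-0.91), Serpina3g (-0.70), Flrt2 (-0.59) and Rdh10 (-0.49). Of these calls, 3 ended when 1 pair was left out, each with several choices of pair. The adjusted p reached 0.104 for Krt8 without the Tet1CD pair, 0.0984 for Prob1 without the shDnmt1 pair and 0.0715 for Serpina3g without the pair labelled Dnmt1. The call also ended for Krt8 without the pair labelled Dnmt1, the shDnmt1 pair or the Tet1CD+shDnmt1 pair. For Prob1 it ended too without the control pair, the pair labelled Dnmt1 or the Tet1CD pair, and for Serpina3g without the shp53+shDnmt1, Tet1CD or Tet1CD+shDnmt1 pair. Without limma's trend the calls of Krt8 and Prob1 ended as well, and with a pseudocount of 1 that of Prob1. The most negative differences belonged to ENSMUSG00000104080 (-4.83), ENSMUSG00000102307 (-4.60), Slc38a6 (-4.06) and Baiap2l1 (-3.82). Their mean ratios without Tet1CD were 0.80, 0.57, 0.44 and -0.23, against 5.62, 5.17, 4.50 and 3.59 with it.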

How the results depend on the processing

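Calls of 64 higher and 78 lower genes became 38 and 45 with a pseudocount of 20, 317 and 486 at 1.5-fold, and 707 and 4 without centring, by the construction of those settings. Without centring 31 lists, against 10 of 35, had a median above 0 in every pair and 1, against 13, below. Joint quantile normalization gave 63 and 79 calls, sharing 62 and 74 with the main calls, and unpaired levels 65 and 76, sharing 57 and 63. Leaving out 1 pair gave 62 to 81 higher and 81 to 94 lower, and 11 to 12 lists above and 13 to 15 below 0. These runs shared 51 to 59 of the 64 higher and 64 to 67 of the 78 lower main calls, so part of the called genes changed.

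Without minus with Tet1CD, leaving out 1 pair gave from 560 (without the pair labelled Dnmt1; 594 without the shDnmt1 pair) to 1036 positive and from 988 to 1392 negative calls, and the other settings 837 to 1055 positive and 1268 to 1446 negative. For the hairpin, limma gave 1 positive call with a pseudocount of 20 and 1 without the trend. Leaving out 1 pair gave 0 to 69 positive and 0 to 100 negative: 8 and 4 without the pair labelled Dnmt1, 12 and 4 without the shp53+shDnmt1 pair, and 69 and 100 without the shDnmt1 pair; the lone pair of a side was then assumed to vary like the other side. The cause was not tested. In these runs no named gene that was called changed sign. By the definition of a call, leaving out a pair, changing the call size or omitting the centring could not reverse it. For these settings the sign is no sign of robustness. The unknown depth limits all ratios, and the ceiling limits those of genes at the highest value.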
